A study of Mus musculus with 20 samples.

Results

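DNA methylation was compared between the earlier and the later promyelocytes of PML-RARa transgenic mice: 5 libraries of CD34- cells against 5 libraries of CD34+ cells, 10 of the 20 libraries of the series. They were chosen by genotype and sorted fraction as their titles give them. The other 10 libraries, 5 CD34+ and 5 CD34- of wild-type (WT) mice, served for comparison. All mice had the FVB/n background. The labels call CD34+ cells early and CD34- cells late promyelocytes. They do not name the promoter that drives the transgene, the age of the mice, or whether each library stands for a mouse of its own, so the p-values below measure the spread between libraries, which may in part be technical. Within 19 autosomes, 1740077 of the 3243062 CpG cytosines listed in any library were covered by at least 10 reads in at least 4 of 5 libraries of both PML-RARa groups. Cut into fixed 1 kb steps on mm9, the genome gave 128103 windows that held 3 or more of them, with a median of 5 cytosines each, and held 92.6% of the kept cytosines.

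Promyelocytes are the stage of granulocyte formation at which primary granules are made, and loss of the surface protein CD34 marks their passage from progenitor to later precursor. PML-RARa is the fusion of PML with the retinoic acid receptor alpha that arises in acute promyelocytic leukaemia, in which promyelocytes accumulate. Methylation of the cytosine in CpG dinucleotides is copied at each division by Dnmt1, which Uhrf1 brings to newly replicated DNA, and it is lost by dilution over divisions or through oxidation by Tet enzymes. Promoters rich in CpG are mostly free of it in any cell, while enhancers and other distal elements often lose it when they come into use. Enhanced reduced representation bisulfite sequencing (ERRBS), used here, reads CpG-rich restriction fragments after a treatment that turns unmethylated cytosines into T. A level is the percent of reads that carry C. It is an average over the sorted cells, so a lower level in every cell and fewer cells with full methylation cannot be told apart.

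Genes were placed on these positions through their promoters. A RefSeq promoter sequence (GRCm38 table, 250 bases before to 50 after the gene start) was laid over the deposited cytosine positions by the spacing of its CpGs alone, and 9052 promoters of 8014 genes found a single place. Only promoters with at least 10 CpGs at listed positions could be placed. A gene that was not placed may therefore start nearer to a window than the gene named. In Cep19 and Uhrf1, shown because they are the nearest placed starts to windows that fell, the capitals mark CpGs kept in these libraries. The first lies at chr16:32099625-32099924 and the second at chr17:56443486-56443785, mm9 by this match, both on the + strand.
Cep19: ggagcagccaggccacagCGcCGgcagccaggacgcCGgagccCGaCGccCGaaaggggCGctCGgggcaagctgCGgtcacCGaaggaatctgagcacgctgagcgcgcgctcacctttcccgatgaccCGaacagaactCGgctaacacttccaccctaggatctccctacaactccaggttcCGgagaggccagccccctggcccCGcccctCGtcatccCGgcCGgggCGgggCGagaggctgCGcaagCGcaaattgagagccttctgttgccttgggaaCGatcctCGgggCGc
Uhrf1: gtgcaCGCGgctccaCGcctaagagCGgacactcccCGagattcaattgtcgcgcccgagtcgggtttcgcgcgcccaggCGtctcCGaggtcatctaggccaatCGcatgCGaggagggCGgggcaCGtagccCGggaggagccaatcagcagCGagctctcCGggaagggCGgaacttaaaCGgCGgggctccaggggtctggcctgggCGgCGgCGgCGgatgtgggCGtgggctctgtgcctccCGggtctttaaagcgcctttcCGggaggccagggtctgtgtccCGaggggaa
The Cep19 promoter held 30 CpGs, of which 24 were kept, and its level was 0.0679% ± 0.0283 in CD34+ and 0.140% ± 0.257 in CD34- libraries (SD, n = 5 each). The Uhrf1 promoter held 33, of which 25 were kept, with levels of 0.0618% ± 0.0618 and 0.0816% ± 0.0523 (SD, n = 5 each). Both promoters were thus read as unmethylated in the same cells in which windows 2126 bp and 21736 bp away lost methylation.

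Total coverage per PML-RARa library, summed over cytosines, ran from 83631324 to 362881291, and the median coverage of a cytosine from 32 to 150 reads. Some libraries stood apart. At the 21521 windows with a level of 20 to 80% that all 10 libraries covered, the median distance of a library from the median of the other 4 of its group was 9.57 points in CD34+ replicate 11, 8.18 in CD34+ replicate 5 and 7.77 in CD34- replicate 6, against 4.48 to 6.63 points in the other 7. Of 35615 cytosines with group means of 30 to 70%, replicate 11 read 18.5%, replicate 6 14.0% and replicate 5 7.52% at below 5% or above 95%, as against 0.0786% to 4.40% in the others. Replicate 11 had the lowest coverage and replicate 5 the next lowest, while replicate 6 was among the most deeply read. The PML-RARa libraries lay on 4 flowcells, which the design ties to the groups in part. One flowcell, called B here, held 3 CD34+ and 2 CD34- libraries, another held the other 3 CD34- libraries and no CD34+ one, and 2 more held 1 CD34+ library each. Values within flowcell B are therefore given beside the window differences and the averages over windows. Expression of CD34 is not measured by this assay, and its promoter was not placed, so the sort could not be checked from the data.

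At 8 of the 128103 windows (0.00624%) methylation differed between the fractions by the quasi-binomial test, at an adjusted p below 0.05 and at least 10 points. All 8 fell in CD34- cells and 0 rose. An unadjusted p below 0.05 was found at 8555 windows (6.68%), of which 5733 were lower and 2822 higher in CD34- cells. At 3736 windows the CD34- mean was lower by at least 10 points, and at 2241 it was higher by as much. The 8 windows held 3 to 12 kept cytosines (median 6), in 38 to 3095 reads per library. In such window totals a read counts once for each cytosine it covers. In 7 of them the CD34- level was below 3%. In all 8 the 5 CD34- libraries lay below the 5 CD34+ libraries. Over the 114462 windows read in all 20 libraries, the PML-RARa groups stood apart with CD34- lower at 0.763% and with CD34- higher at 0.272%.

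The largest loss was on chromosome 13, at chr13:44504001-44505000, a window with no placed gene start within 50 kb. Its level in CD34+ replicates 3, 5, 11, 13 and 19 was 66.3, 57.8, 60.6, 58.9 and 52.0%. In CD34- replicates 4, 6, 12, 14 and 20 it was 29.6, 23.0, 25.9, 25.8 and 24.4%. The high-scatter libraries 5, 11 and 6 were close to the rest of their groups here. The means were 59.1% ± 5.18 and 25.8% ± 2.46 (SD, n = 5 each), a difference of -33.4 points (adjusted p = 0.00634), and -33.8 points within flowcell B. It was the one called window with a CD34- level above 3%. All 6 of its cytosines were lower in CD34- cells, by 29.0 to 39.4 points.

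On chromosome 16, the window chr16:32102001-32103000 lay 2126 bp beyond the start of Cep19, which encodes a protein of the centrosome and ciliary base. The start of Pigx, a subunit of the enzyme that adds mannose to GPI anchors, lies beside it on the other strand. CD34+ levels in replicates 3, 5, 11, 13 and 19 were 35.9, 36.2, 20.8, 33.3 and 28.0%. The CD34- levels in replicates 4, 6, 12, 14 and 20 were 6.57, 2.68, 0.610, 1.19 and 3.10%. Replicate 11 was the lowest of the CD34+ libraries and still above every CD34- one. The difference was -28.0 points (30.8% ± 6.52 against 2.83% ± 2.33, SD, n = 5 each; adjusted p = 0.0168), and -27.4 points within flowcell B. The window that holds the Cep19 start, 3 windows upstream, had 55 kept cytosines at 0.0746% and 0.111%.

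A window on chromosome 8, chr8:125806001-125807000, lay 35476 bp from the start of Fanca, a component of the Fanconi anaemia complex that repairs DNA crosslinks. In CD34+ replicates 3, 5, 11, 13 and 19 it stood at 32.3, 27.8, 23.3, 17.2 and 23.3%, and in CD34- replicates 4, 6, 12, 14 and 20 at 4.76, 0.895, 2.92, 1.71 and 2.68%. The groups were apart by over 10 points at their nearest libraries. The difference of means was -22.2 points (24.8% ± 5.64 against 2.59% ± 1.46, SD, n = 5 each; adjusted p = 0.00653), and -23.9 within flowcell B. Of its 10 cytosines, 2 were read at under 1% in each library that covered them, 1 of them in 9 of the 10 libraries, while the same CpG on the opposite strand was methylated. Without such cytosines the difference was -27.3 points.

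The smallest p of all windows belonged to chr17:56421001-56422000, which lay 21736 bp upstream of the start of Uhrf1, the partner of Dnmt1 in copying methylation, and 24785 bp from that of Fem1a, a substrate receptor of a ubiquitin ligase. Its 3 kept cytosines, chr17:56421001, 56421002 and 56421011, all lay at the edge of the window next to the kilobase before it. Of these, chr17:56421001 and 56421002 are opposite strands of the same CpG, so the window's value rests on very few CpGs. They gave levels of 19.0, 20.5, 15.4, 18.1 and 24.4% in CD34+ replicates 3, 5, 11, 13 and 19. In CD34- replicates 4, 6, 12, 14 and 20 the levels were 0.465, 0.155, 0, 0.236 and 0.923%. CD34- replicate 12 had 0 methylated of 229 reads, summed over the 3 cytosines. Taken as separate reads, these allow a level of up to 1.31% for counting error alone. A read counts once for each cytosine it covers, so the limit may be higher. The difference was -19.1 points (19.5% ± 3.30 against 0.356% ± 0.359, SD, n = 5 each; adjusted p = 0.00306), and -18.1 within flowcell B. The kilobase just before it, chr17:56420001-56421000, had 62.6% ± 17.1 and 41.1% ± 13.1 and did not pass the test (adjusted p = 0.720), and the kilobase before that stood at 94.2% and 90.05%. Methylation thus dropped within 3 kb from nearly full to intermediate to low in CD34+ cells.

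The other 4 losses started from low levels. Methylation at chr10:59791001-59792000, 17599 bp from the start of Vsir, an inhibitory receptor of myeloid and T cells, was 15.6% ± 9.33 in CD34+ and 0.178% ± 0.399 in CD34- libraries (SD, n = 5 each; adjusted p = 0.0407). CD34+ replicates 3, 5, 11, 13 and 19 stood at 23.8, 23.1, 2.13, 9.94 and 19.0% there, and in 4 of 5 CD34- libraries no methylated read was found in 203 to 811 reads. The kept cytosines of this window were chr10:59791931, 59791969 and 59791970, of which 59791969 and 59791970 are opposite strands of the same CpG. At chr12:86949001-86950000, 8033 bp from a start of Jdp2, a repressor of AP-1 target genes, methylation went from 12.8% ± 5.18 to 0.309% ± 0.374 (SD, n = 5 each; adjusted p = 0.0395). CD34+ replicate 5 gave its 7.89% from 3 methylated of 38 reads, counted once per cytosine. It covered only chr12:86949151, 86949172 and 86949184 there, at 8.33, 7.69 and 7.69%. The same reads may be counted at each of these positions, so its level may rest on very few reads. At chr5:144168001-144169000, 36248 bp from the start of Grid2ip, a scaffold protein of glutamate receptors, the fractions stood at 11.8% ± 3.01 and 0.105% ± 0.149 (SD, n = 5 each; adjusted p = 0.00757). Nearer to it, chr5:144165001-144166000 held 76 kept cytosines at 0.0952% and 0.0954% in the fractions, with no start placed there. The smallest called loss was at chr1:135282001-135283000, 21852 bp from the start of Etnk2, an ethanolamine kinase, with 11.4% ± 2.81 and 1.25% ± 0.515 (SD, n = 5 each; adjusted p = 0.00952). Within flowcell B these 4 differences were -16.3, -14.03, -12.3 and -11.5 points in the order given.

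**Figure D1:**
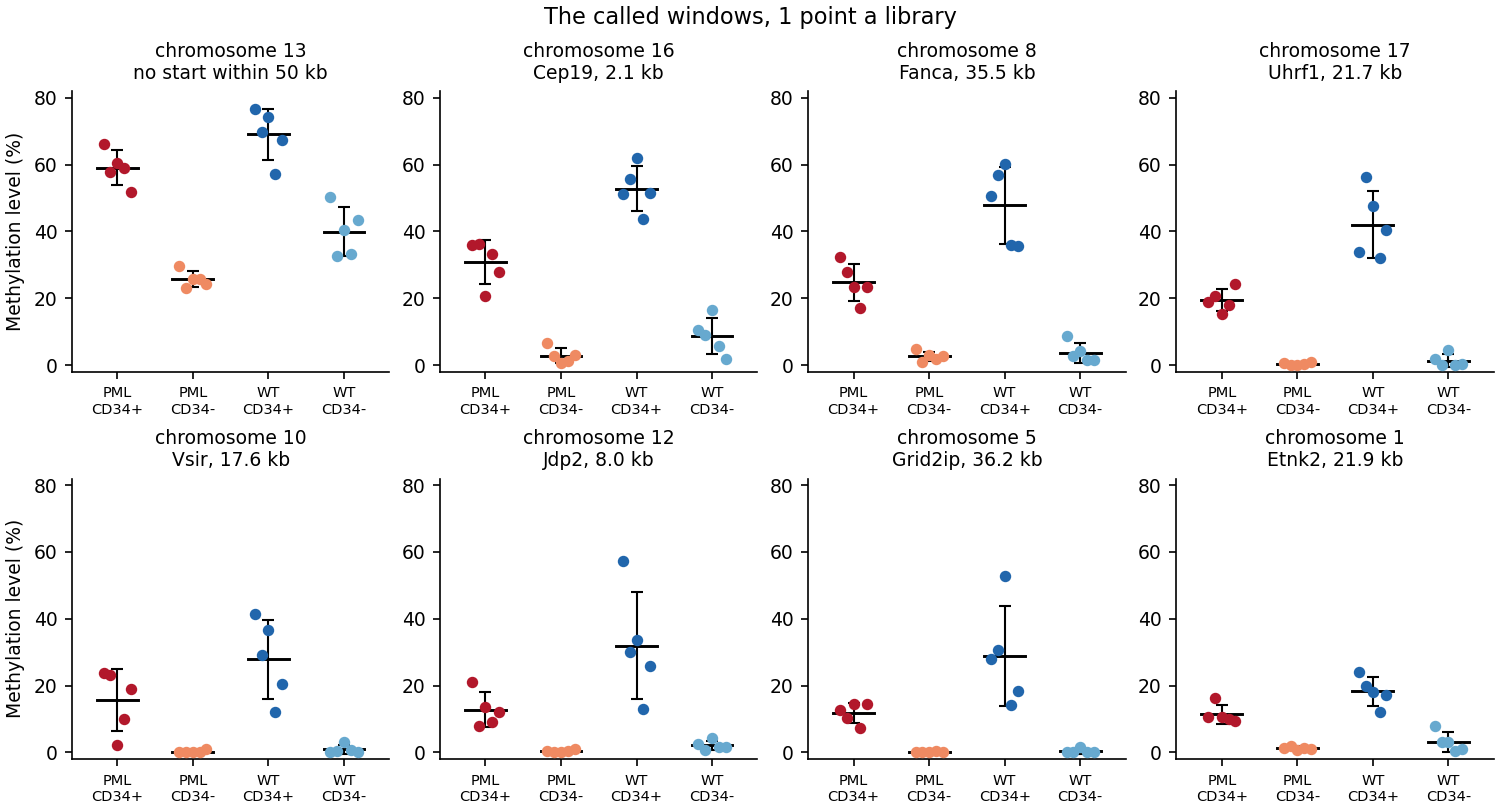
Methylation level in percent of the 8 called windows, 1 point for each of the 5 libraries of a group, with the group mean (bar) and SD (whiskers); each panel names the chromosome and the nearest placed gene start within 50 kb. In each panel the PML-RARa CD34- points lie below the CD34+ points, and the WT CD34+ mean lies above the PML-RARa CD34+ mean.

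Single cytosines gave 0 calls (0%) among 1740077 by the same test, with 110572 (6.35%) at an unadjusted p below 0.05. The smallest adjusted p, 0.0805, belonged to chr17:56421011 on the - strand, in the window near Uhrf1. It read 23.2, 20.0, 25.5, 23.8 and 29.5% in CD34+ replicates 3, 5, 11, 13 and 19 and 0.629, 0, 0, 0 and 0.389% in CD34- replicates 4, 6, 12, 14 and 20. Its 2 neighbours in that window had 17.4% and 17.5% in CD34+ and 0.660% and 0.202% in CD34- cells. Within the window near Etnk2 the loss was uneven. Its cytosine at chr1:135282908 stood at 38.4% and 4.17% in the 2 fractions, while 3 others read 0 in both. CD34+ replicate 11 read 0 at that cytosine as well, and CD34- replicate 20 did not cover it.

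**Figure D2:**
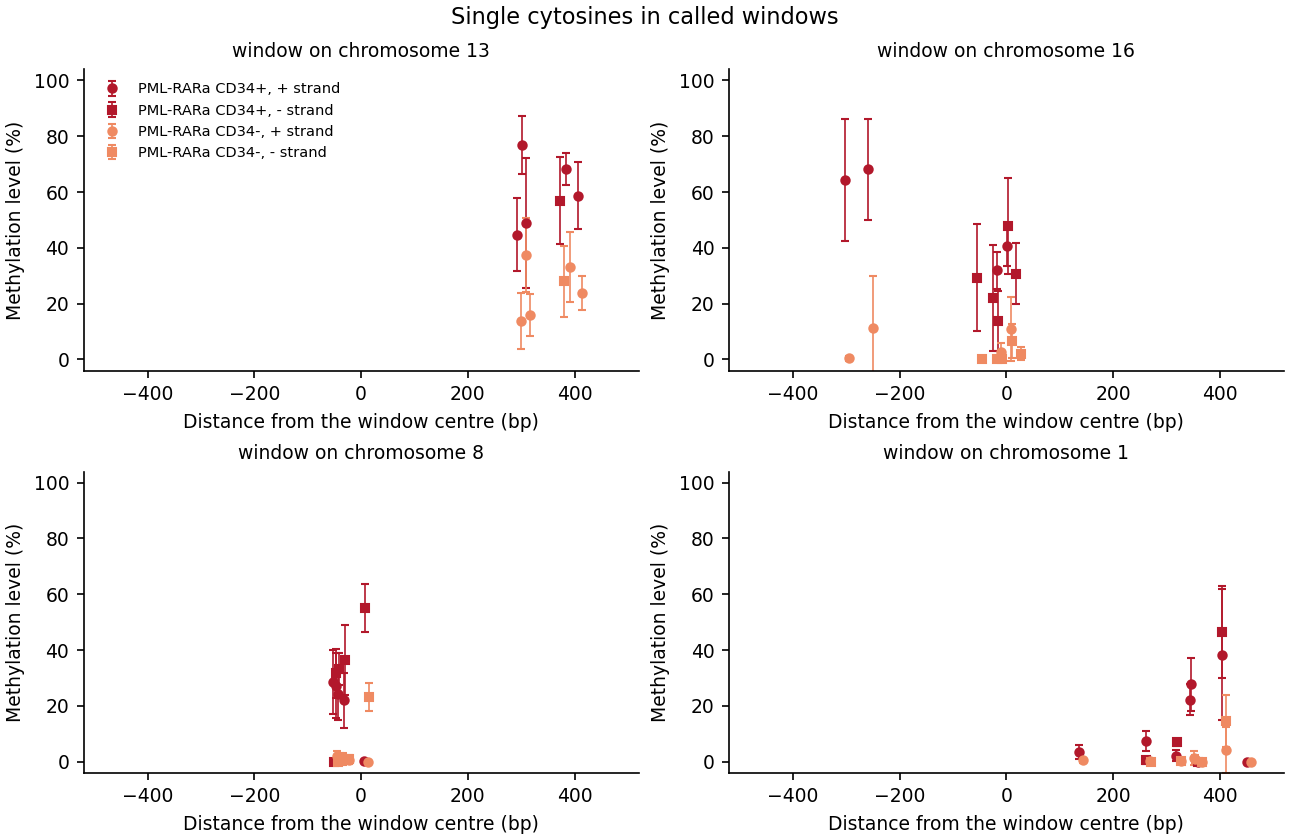
Methylation level in percent of each kept cytosine in 4 called windows against its distance from the window centre in bp, as the mean of the 4 or 5 libraries that covered it with SD whiskers, by fraction and strand (points of the fractions are offset slightly). On chromosomes 13 and 16 each cytosine is lower in CD34- cells. On chromosome 1 some cytosines are at 0 in both fractions and so could not fall.

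The alternatives did not all keep these calls. The window near Uhrf1 passed in all 10 fits that left out 1 library, and the chromosome 13 window in 9, missing without CD34- replicate 20 (adjusted p = 0.0617). The Fanca and Grid2ip windows passed in 7 and 6 of these fits, the Etnk2 window in 4, the Cep19 window in 2, the Vsir window in 1 and the Jdp2 window in 0. The number of called windows dropped to 1 when CD34- replicate 20 was left out, and was 8, of which 7 were among the first 8, when CD34+ replicate 11 was. It was 2 for CD34+ replicate 19 and for CD34- replicate 14, 3 for CD34+ replicate 3, 4 for CD34+ replicate 5 and for CD34- replicate 12, 5 for CD34- replicate 6, and 7 for CD34+ replicate 13 and for CD34- replicate 4. Without the 4 libraries that an earlier analysis had found to scatter most, CD34+ 5 and 11 and CD34- 6 and 12, 0 windows passed, with 8535 at an unadjusted p below 0.05. Fewer libraries also give that fit less power. Its differences at the 8 windows were -32.4, -28.8, -21.2, -19.96, -17.3, -13.6, -11.3 and -8.81 points, in the order described above. With all 10 libraries they were -33.4, -28.0, -22.2, -19.1, -15.4, -12.5, -11.7 and -10.1 points. Limma on the logit of the levels called 4 windows, 2 of them among the 8, and with library weights 16, among them all 8. The edgeR test called 0, with 3864 windows at an unadjusted p below 0.05. A fit with flowcell as a factor, in which flowcell B alone informs the comparison, called 0 of 128103, with 6056 at an unadjusted p below 0.05.

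**Figure D3:**
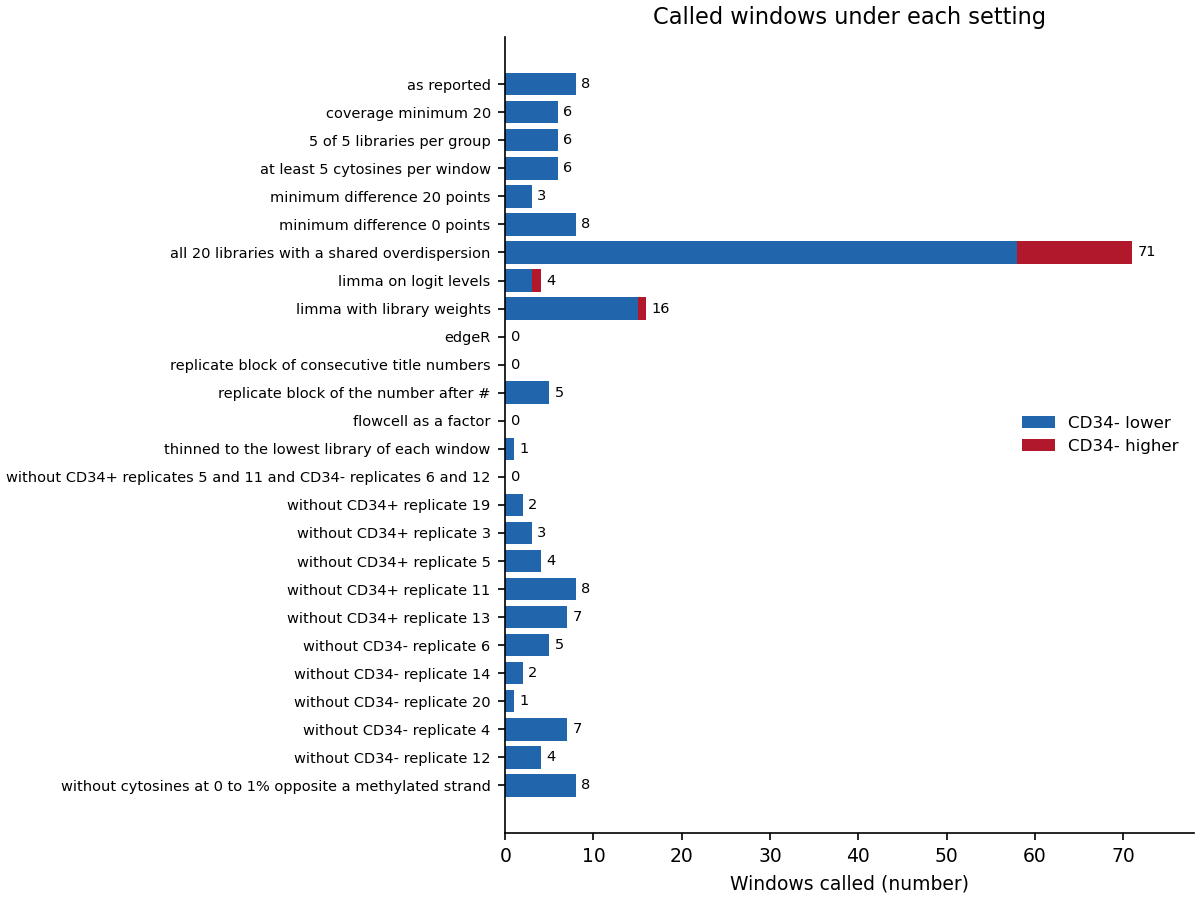
Number of windows called in the comparison of CD34- with CD34+ PML-RARa libraries under each setting, split into windows lower (blue) and higher (red) in CD34- cells. The counts run from 0 to 71, and losses outnumber gains in every setting that called any.

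In WT mice the same test on the same windows called 522 of 127276 (0.41%), 449 lower and 73 higher in CD34- cells. Left without 1 WT library at a time, it called 256 (without CD34+ replicate 7) to 503 windows. Counts over 1.5 times below 522 also came without WT CD34+ replicates 9 (263) and 17 (324) and CD34- replicates 8 (295), 16 (328) and 18 (323). The tests of the 2 genotypes differ in power. An earlier analysis had found the PML-RARa libraries to scatter more than the WT ones. Each flowcell with WT libraries also held both WT fractions. The counts of 8 and 522 thus do not measure in which genotype methylation changed more. All 8 windows that fell in PML-RARa mice were among the 449, which is 100% of the 8 and 1.53% of the 522, and 6 to 8 of them passed in the WT fits with 1 library left out. The WT losses there ran from -15.1 to -44.2 points (adjusted p from 0.00149 to 0.0155) and were the larger in 7 of 8 windows, although the windows were chosen for their change in PML-RARa cells. The exception was chromosome 13, where WT cells went from 69.1% ± 7.63 to 39.95% ± 7.39 (SD, n = 5 each), or -29.1 points. Near Uhrf1 the WT levels were 42.0% ± 10.0 and 1.35% ± 1.87, near Cep19 52.8% ± 6.68 and 8.61% ± 5.45, and near Fanca 47.8% ± 11.6 and 3.70% ± 2.97 (SD, n = 5 each). The WT CD34+ mean was above the PML-RARa CD34+ mean in all 8 windows, as it was in 438 of the 449 WT losses, which were chosen on WT values. At none of the 8 windows did the interaction test of genotype and fraction pass, with unadjusted p from 0.179 to 0.894. It compares changes on the logit scale of the model, so the differences in points were not tested by it. Over all windows that test called 0 of 127276 (0%), with 6583 (5.17%) at an unadjusted p below 0.05 and a smallest adjusted p of 0.600.

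The windows called in WT mice were then followed in the PML-RARa libraries, which had no part in their choice. Of the 449 WT losses, 430 (95.8%) were lower in CD34- than in CD34+ PML-RARa libraries, as were 56.2% of all shared windows. The median difference was -12.9 points in PML-RARa and -25.0 in WT libraries, against -0.118 points over all shared windows in PML-RARa mice. The WT value is raised by the choice of windows on WT. Of the 423 with all libraries, the PML-RARa groups did not overlap at 130 (30.7%), all with CD34- lower, next to the 0.763% given above. Averaged over these windows, CD34+ replicates 3, 5, 11, 13 and 19 stood at 51.7, 57.1, 47.5, 46.1 and 50.01%, and CD34- replicates 4, 6, 12, 14 and 20 at 37.9, 37.1, 35.9, 35.3 and 36.9%. No CD34- library reached the lowest CD34+ one. The WT means were 61.8% ± 4.33 in CD34+ and 36.0% ± 2.52 in CD34- cells, so the fractions of the 2 genotypes lay closer after maturation (36.6% ± 1.03 in PML-RARa CD34-) than before it (50.5% ± 4.32 in PML-RARa CD34+; SD, n = 5 each). The choice of windows on WT values enters this contrast, which was not tested. Without replicates 5, 11, 6 and 12 the PML-RARa difference of these means was -12.6 in place of -13.9 points, and within flowcell B it was -15.2.

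The WT gains were followed likewise. Of the 73 windows that rose in WT mice, 72 (98.6%) were higher in CD34- PML-RARa libraries, as were 43.7% of all shared windows, by a median of 12.8 points. The PML-RARa groups stood apart at 17 of 69 (24.6%), next to 0.272% over all windows. The 69 windows averaged 48.0% ± 3.57 in CD34+ and 62.2% ± 1.62 in CD34- PML-RARa libraries, and 38.1% ± 3.45 and 62.3% ± 1.47 in WT libraries (SD, n = 5 each). CD34+ replicate 5 was the lowest PML-RARa library at 41.8%. Within flowcell B the PML-RARa difference was 14.1 points.

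**Figure D4:**
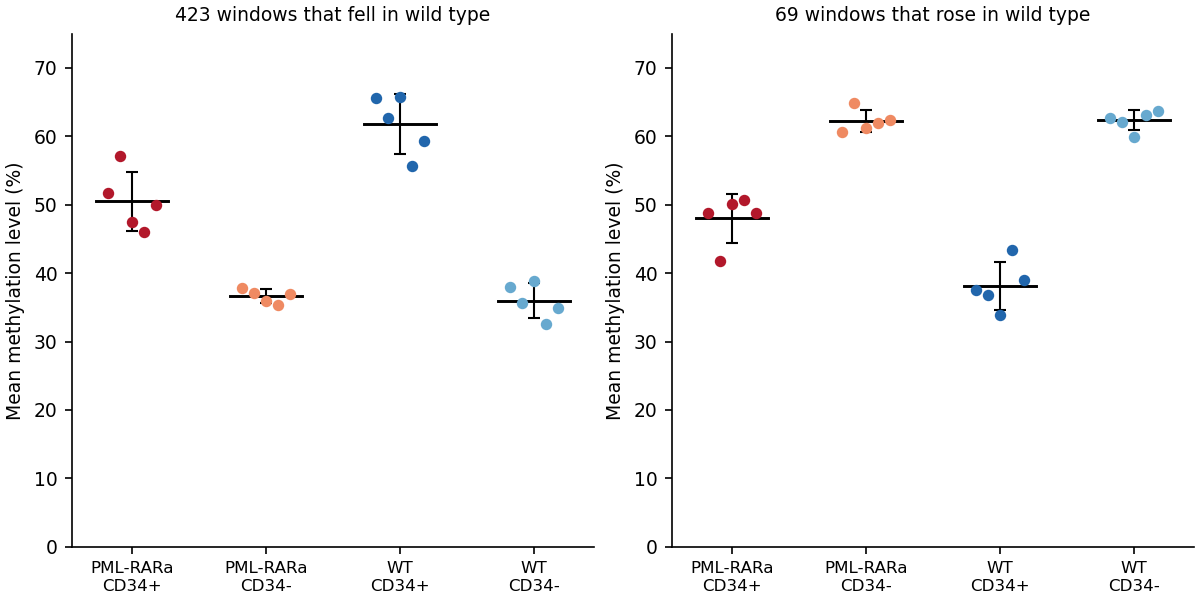
Mean methylation level in percent over the windows that fell (left, 423) and rose (right, 69) between CD34+ and CD34- cells in WT mice and were read in all 20 libraries, 1 point a library, with the group mean (bar) and SD (whiskers). The PML-RARa CD34+ points lie between the WT CD34+ and the CD34- points on average, and the CD34- means of the genotypes are 36.6% and 36.0% on the left and 62.2% and 62.3% on the right.

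No gain passed in PML-RARa mice, and the 10 with the smallest p among windows higher by at least 10 points had adjusted p from 0.0902 to 0.167. At chr8:12931001-12932000, 15090 bp from the start of Mcf2l, CD34+ replicates 3, 5, 11, 13 and 19 read 43.5, 46.6, 36.1, 50.7 and 51.1%. CD34- replicates 4, 6, 12, 14 and 20 read 72.1, 95.2, 82.3, 75.6 and 84.5% there (adjusted p = 0.0902), and the groups did not overlap. Within flowcell B the difference was 35.1 points. WT cells went from 30.9% ± 11.5 to 79.2% ± 5.02 (SD, n = 5 each; adjusted p = 0.00616) at this window. At chr17:26574001-26575000, 22197 bp from the start of Neurl1b, a ubiquitin ligase that acts on Notch ligands, the PML-RARa means were 28.8% ± 2.43 and 46.6% ± 2.11 (SD, n = 5 each; adjusted p = 0.109), with a difference of 16.8 points within flowcell B. Of the 10 windows, 7 passed in WT mice, where 73 of all 127276 windows passed as gains. In all 10 PML-RARa libraries 8 were read, 7 of these with groups that did not overlap. Over the windows read in all 20 libraries, that share with CD34- higher was 0.272%. The 10 were picked on their PML-RARa values, so their separation comes in part from the choice. Among losses, 2 further windows just missed the threshold, both with an adjusted p of 0.0651. They were chr11:117997001-117998000, with 17.0% ± 7.79 and 0.205% ± 0.287, and chr4:46626001-46627000, 11200 bp from the start of Coro2a, a coronin that binds actin, with 28.6% ± 4.49 and 10.9% ± 3.13 (SD, n = 5 each). Both had passed in WT mice, at an adjusted p of 0.00904 and 0.00566, and within flowcell B they differed by -20.9 and -21.6 points.

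The mean over kept cytosines was 34.4% ± 0.681 in CD34+ and 34.4% ± 0.190 in CD34- libraries (SD, n = 5 each), with CD34+ replicate 11 lowest at 33.3%. An exact permutation test, two-sided, gave p = 0.881. Without that replicate the CD34- mean was lower by 0.373 points (exact permutation p = 0.0476), and within flowcell B it was higher by 0.125 points. With reads pooled, so that deeply read cytosines weigh more, the difference was -3.16 points (exact permutation p = 0.302). Each class of windows was lower on average in CD34- libraries. Windows with a level of 20 to 80% differed by -1.20 points (58.5% ± 0.974 against 57.3% ± 0.608, SD, n = 5 each; exact permutation p = 0.0556, adjusted over 5 classes 0.0635). Those above 80% differed by -0.633 points and those below 20% by -0.167 points, with adjusted exact permutation p of 0.0529 and 0.0635. The 84085 windows with 3 to 9 cytosines differed by -0.747 points and the 33796 with 10 or more by -0.299 points, both at an adjusted exact permutation p of 0.0529. The smallest p that 5 against 5 libraries allow is 0.00794. Within flowcell B these 5 differences were -1.55, -0.825, -0.127, -0.939 and -0.390 points in the order given. With reads pooled, the class of 10 or more cytosines differed by -1.15 points (adjusted exact permutation p = 0.373). In WT libraries the same 5 differences were -1.94, -0.986, -0.253, -1.17 and -0.436 points in the order given.

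Windows were also grouped by their distance from the nearest placed gene start, a split added after the first results. Of 31396 promoter sequences 9052 were placed, so the farther classes may also hold windows at or near unplaced starts. Those 1 to 10 kb away, 11814 in number, averaged 65.1% ± 0.396 in CD34+ and 64.2% ± 0.265 in CD34- libraries (SD, n = 5 each). The groups did not overlap, and the exact permutation p was 0.00794, or 0.0317 adjusted over 4 classes. At 10 to 50 kb the difference was -0.819 points (adjusted exact permutation p = 0.0476), beyond 50 kb -0.568 points (0.0529) and within 1 kb -0.134 points (0.0794). Left without 1 library at a time, the adjusted p at 1 to 10 kb ran from 0.0317 to 0.0635 and at 10 to 50 kb from 0.0317 to 0.0952. Each class passed in 2 of 10 fits, those without CD34+ replicate 13 and CD34- replicate 20. At 1 to 10 kb the unadjusted p was 0.0159 in each fit, the smallest that 4 against 5 libraries allow, so a p above the threshold there says nothing about stability. With reads pooled neither class passed, with -1.88 and -2.39 points (both at an adjusted exact permutation p of 0.333). Without replicates 5, 11, 6 and 12 the difference at 1 to 10 kb was -0.818 points, too few libraries for an exact permutation test to pass, and within flowcell B it was -1.13 points, with -0.957 at 10 to 50 kb. Among all tested windows 1 to 10 kb away, also those that a library did not cover, 3.59% were lower and 1.64% higher by at least 10 points, as against 0.694% and 0.414% within 1 kb. Of the windows that all 10 libraries covered, 20.6% at 1 to 10 kb and 5.46% within 1 kb had a level of 20 to 80%.

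**Figure D5:**
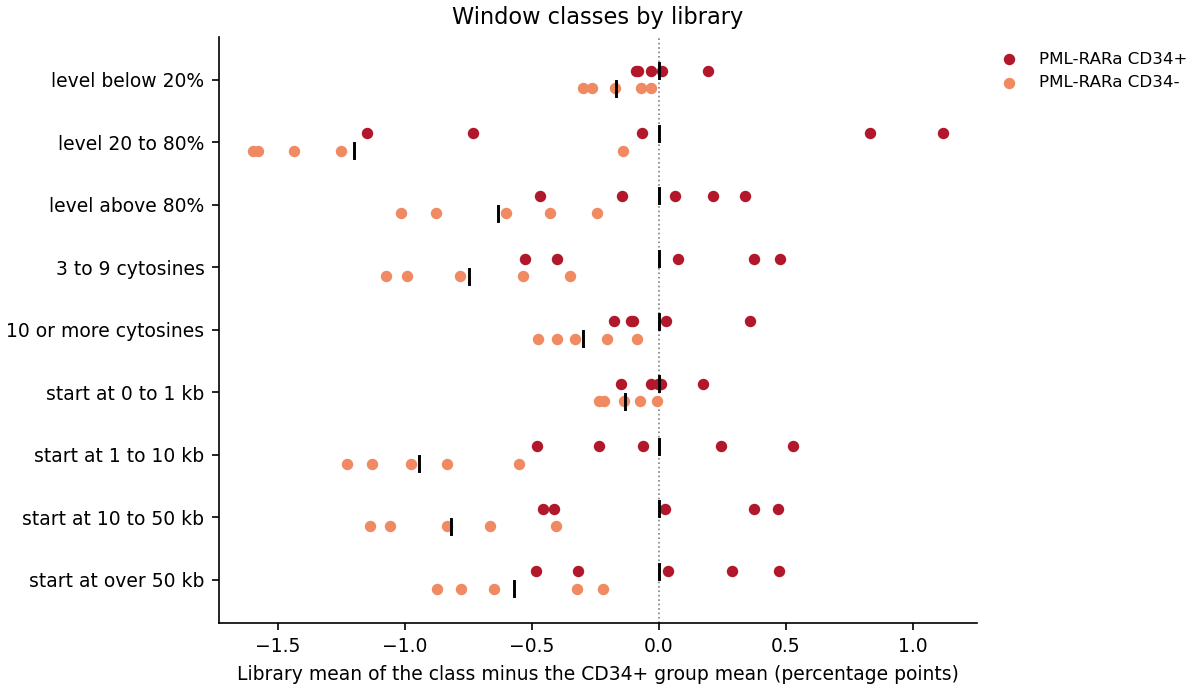
Library means over classes of windows, by level, by number of cytosines and by distance from the nearest placed gene start, as the difference in percentage points from the mean of the 5 CD34+ PML-RARa libraries, with 1 point a library and a bar at each group mean. CD34- points lie to the left, and the fractions are apart in the class at 1 to 10 kb.

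The placed promoters, all with at least 10 CpGs at listed positions, were nearly free of methylation in both fractions. Promoters with fewer such CpGs could not be placed, so nothing is said of them here. Of 8900 placed promoters with at least 3 kept cytosines, from 7882 genes, 96.0% were below 5% in both groups, and 0 lay in a called window. A difference of at least 10 points was found at 9, with 6 lower and 3 higher in CD34- cells. The 3 described here were picked with their values in view. Tekt2, a tubulin-binding protein of flagella, had 23.3% ± 19.8 and 41.1% ± 30.3, with CD34- replicate 6 at 95% and the other 4 between 23.6 and 31.9%. The promoter of Arhgef18 read 62.6% ± 24.3 and 78.1% ± 5.81 (SD, n = 5 each). There, CD34+ replicates 5 and 11 stood at 36.7 and 35.3% and the other 3 at 79.2 to 81.7%. Meioc, needed for meiotic prophase, had 63.9% ± 8.46 and 49.1% ± 15.0, with overlapping groups.

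The genes of 8 lists that bear on this cell type were looked up next. Of the progenitor genes 5 of 15 were placed with at least 3 kept cytosines, of the granulocyte transcription factors 6 of 14, of the DNA methylation enzymes 8 of 11, of the retinoid genes 5 of 16, of the cell cycle genes 11 of 26 and of genes of other blood cells 2 of 16. No primary granule gene (of 8) and no late granulocyte gene (of 19) was placed, so their promoters were not analysed here. Of the placed promoters, all but that of Pax5, the B cell factor, were below 5% in both fractions, and 0 lay in a called window. Among progenitor genes the differences were largest at Flt3, a cytokine receptor (0 and 0.274%), and Gata2, a stem cell factor (0.254% and 0.467%). Among granulocyte factors they were largest at Runx3 (0.0575% ± 0.0373 and 0.162% ± 0.208) and Irf8 (0.0727% ± 0.0677 and 0.160% ± 0.227; SD, n = 5 each), which steers cells towards monocytes. At both, CD34- replicate 4 was highest, with 0.532% and 0.551%. Tet3 and Tet1, which oxidise methylated cytosine, had 0.605% and 0.880%, and 1.37% and 1.24%. Rara, the receptor gene that is fused to PML in the leukaemia, had 0.110% and 0.212%, and Rarb 0.154% and 0.463%. Cdkn1a, a cell cycle inhibitor, had 0.472% ± 0.778 (SD, n = 5), with CD34+ replicate 5 at 1.79%, and 0. Cdk6, a cyclin-dependent kinase, had 0.0474% and 0.152%. Pax5 read 3.44% ± 2.48 and 7.14% ± 6.37 (SD, n = 5 each), with CD34- replicate 4 at 17.9%, and Gata3, a T cell factor, 0.0496% and 0.0849%. For scale, 0.0638% to 0.203% of mitochondrial reads carried C in the PML-RARa libraries, so many of these promoter values lie near the lowest levels read.

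Away from the promoters, 1 called window had a list gene as its nearest placed start, the one near Uhrf1. Windows whose nearest placed start, within 50 kb, was that of a DNA methylation enzyme numbered 92, of which 6 were lower and 2 higher by at least 10 points. Among all 58602 windows within 50 kb of a placed start, 2.83% were lower and 1.46% higher by as much. The lists of granulocyte factors (5 lower and 3 higher of 117 windows), progenitor genes (1 and 2 of 68), retinoid genes (2 and 1 of 70), cell cycle genes (2 and 2 of 85) and other blood cell genes (0 and 2 of 27) gave counts of 0 to 5. Some single windows, chosen after their values were seen, show the range. At chr12:3924001-3925000, 32257 bp from a start of Dnmt3a, a methyltransferase that sets new marks, CD34+ libraries averaged 88.4% ± 4.24 and CD34- libraries 69.9% ± 11.1 (SD, n = 5 each; adjusted p = 0.391). At chr2:167527001-167528000, 12586 bp from the start of Cebpb, a granulocyte factor, they averaged 43.2% ± 10.7 and 27.1% ± 4.06 (adjusted p = 0.512), and the same window passed in WT mice (51.2% and 29.7%; adjusted p = 0.0456). At chr10:20912001-20913000, 31211 bp from the start of Myb, a progenitor factor, methylation was higher in CD34- libraries, with 43.4% ± 6.22 and 65.8% ± 11.9 (adjusted p = 0.326), and WT levels of 33.8% and 56.4%.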

How the data were processed

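ERRBS was read in 20 libraries of sorted promyelocytes. CASAVA 1.8.2, Bismark and mm9 are named in the submitters' processing notes. Deposited values are, per the file headers, the count of reads over each CpG cytosine of each strand (coverage) and the percent of them that carry C and T. No cytosine under 10 reads is listed. Reads with C were recovered as coverage times percent, whole at 100% of cytosines when the percent may be off by 0.005 points. Levels are over all reads, of which C and T make up at least 90.0%. Coverage counts a read once per cytosine, and reads carry no molecular identifiers, so the limits given for counts of 0 (3 reads of the total) cover counting error only. They treat counts at neighbouring cytosines as separate reads, so they may be too low.

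Reads were summed over 1000 bp windows. A logistic model with quasi-binomial errors was fitted to the 10 PML-RARa libraries at each window. Its overdispersion was moderated over windows by the method of squeezeVar in limma (prior degrees of freedom 2.74) and not allowed under 1. Its median was 9.68. The F test of the deviance was two-sided, with Benjamini-Hochberg adjustment over all windows, and calls needed an adjusted p below 0.05 and 10 points. WT libraries were fitted apart, and the interaction on all 20. Library means were compared by two-sided exact permutation. Analyses used Python 3.11.15, numpy 2.4.6, scipy 1.17.1 and R 4.3.3, with limma 3.58.1 and edgeR 4.0.16 as alternatives, and were tested on simulated data. A promoter was placed where at least 10 of its CpGs met listed positions, none was listed off its pattern, the place was the only one on its chromosome and a neighbouring promoter shared its shift. Of 31396 autosomal promoter sequences, 13800 had 10 or more CpGs. No coordinate was converted between builds.

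The text names the 10 largest losses and gains among called windows, joined within 1 kb. Where fewer passed, the smallest p among windows 10 points apart filled up to 10, given as values that did not pass and described in part. Of each list, the 2 promoters with the largest difference are named. Samples, lists and tests were chosen with earlier results of these data known. Title numbers that follow each other were not taken to pair libraries. The correlation of their deviations from the group mean exceeded 0.1 in 1 of 5 pairs (-0.0544 to 0.192). For other pairs of a CD34+ and a CD34- library it ran from -0.205 to 0.172. All 5 consecutive pairs also share the number after # in their titles. Such correlations cannot exclude that the libraries are paired. Pairs of libraries within a group differed by more than read-counting noise (mean chi-square per window 12.7 to 38.8), so none was a copy of another. That does not show separate mice.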

Additional observations from a re-analysis of the deposited data

Results flagged for a closer look

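Within a group of 5, a library was set aside for a closer look when its gap to the nearest other library was a large part of the group's range (Dixon's criterion), which chance alone gives in about 1 of 20 groups. Of 66 groups of values examined, 9 gave such a library. CD34+ replicate 11 was lowest in mean methylation (33.3%, next library 34.5%) and highest at a chromosome 18 window among the gains that did not pass (90.1%, next 79.2%). CD34+ replicate 5 was highest at the called window near Etnk2 (16.3%, next 10.7%) and lowest over the windows that rose in WT mice (41.8%, next 48.7%). CD34- replicate 20 held the methylated reads of its group at the window near Vsir (0.892%, next 0), was lowest at the gain chr8:48277001-48278000 (78.7%, next 81.1%), and was highest over windows of 20 to 80% (58.4%, next 57.3%). CD34- replicate 6 read 14.0% of mid-level cytosines at below 5% or above 95% (next 4.40%). In CD34- replicate 12, 0.203% of mitochondrial reads carried C (next 0.0987%).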

How the results depend on the processing

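The number of called windows, 8, was smaller under most settings. A minimum difference of 20 points left 3 windows, reads thinned to the lowest library of each window 1, and a replicate block of the number after # in the titles 5. A replicate block of consecutive title numbers, which were not taken as pairs though pairing is not excluded, called 0, with 10141 windows at an unadjusted p below 0.05. The edgeR test, flowcell as a factor, and the fit without CD34+ replicates 5 and 11 and CD34- replicates 6 and 12 also called 0. Limma called 4 (3 lower and 1 higher), limma with library weights 16 (15 and 1), and all 20 libraries with a shared overdispersion 71 (58 and 13). Leaving out 1 library gave 1 to 8 windows, as the report lists by library. A coverage minimum of 20, 5 of 5 libraries, and at least 5 cytosines per window each gave 6. Leaving out 1 library, the mean over kept cytosines ran from -0.373 points without CD34+ replicate 11 to 0.0444 without CD34+ replicate 19, and was 0.0309 without CD34+ replicate 3. With a coverage minimum of 20, windows of 20 to 80%, above 80%, of 3 to 9 and of 10 or more cytosines passed at -1.24, -0.687, -0.783 and -0.242 points. Leaving out 1 library, the classes below 20%, 20 to 80%, above 80%, 3 to 9 and 10 or more cytosines ran from -0.200 to -0.119, -1.49 to -0.921, -0.750 to -0.537, -0.879 to -0.628 and -0.352 to -0.209 points. All 5 passed without CD34- replicate 20. The cause of these changes was not tested. The fit without unequal strands, the WT fits with 1 library left out and all alternatives for the distance classes and the WT-chosen windows were added after seeing the data. Pooled reads and flowcell B values stand in the report. Depth limits levels near 0: a count of 0 allows up to 1.48% in the shallowest of the libraries with none near Vsir, if counts at its cytosines are separate reads.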

Other observations

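Windows at which CD34- cells were fully methylated in each library stood among the gains that did not pass. At chr2:7008001-7009000 all 5 CD34- libraries read 100%, while CD34+ replicates 3, 5, 13 and 19 read 87.1, 76.7, 83.3 and 88.6%, and replicate 11 had no kept reads (adjusted p = 0.0902). At chr4:118198001-118199000 the CD34- libraries again read 100%, with CD34+ replicates 3, 5, 11, 13 and 19 at 99.0, 92.3, 87.4, 87.4 and 82.7% (adjusted p = 0.161). In WT mice neither passed. The WT levels were 89.3% and 96.8% at the first (adjusted p = 0.649) and 95.04% and 95.8% at the second (adjusted p = 0.937), and the interaction of genotype and fraction had adjusted p of 0.961 and 0.795 there.

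The 2 strands of a CpG were not always read alike. Of 354980 CpGs kept on both strands, 88598 had a group mean of at least 20% on 1 strand or both, and 640 of these (0.722%) read at most 1% on 1 strand in each library that covered it while the other reached 20% in a fraction. They lay in 579 windows, 1 of them called, the window near Fanca. There chr8:125806453 on the - strand read 0 in the 9 libraries that covered it, at a median of 72 reads, beside 28.5% in CD34+ and 1.96% in CD34- libraries on the + strand of the same CpG. At chr8:125806510 the + strand read 0.210%, beside 55.1% and 23.3% on the - strand.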
